A study of Rattus norvegicus with 12 samples.

Results

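Prefrontal cortex of acupuncture-treated rats was compared with that of normal rats, gene by gene, across the Ensembl genes present at a working level in this tissue. A gene was taken as a member where its mean over the 8 libraries compared was at least 1 CPM (the estimated count of a gene per 1000000 of the TMM-scaled library total). This gave 14051 genes out of 43206 genes and assembled loci in all, and out of 32883 with an Ensembl identifier. The lowest mean inside the threshold was 1.00011 CPM and the highest outside it 0.99996 CPM, with 215 members under 1.1 CPM and 221 Ensembl genes between 0.9 and 1 CPM. The members held between 97.6% and 99.1% of the value of each library. Of them, 14044 passed the filter on low values and were tested. The other 7 were above 0 in 1 to 3 of the 8 libraries.

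The 4 acupuncture libraries (replicates 5, 22, 35 and 55) and the 4 normal libraries (replicates 8, 10, 11 and 13) came from SD rats at postnatal day 28, all from prefrontal cortex. A group with hypoxic-ischemic brain damage and no acupuncture (HIBD model, replicates 2, 8, 16 and 18, same strain, tissue and day) is given beside them where its values help to place a gene. The labels of the acupuncture group name the treatment alone, and the series title places the treatment in rats with such damage. The labels give no sham operation, sham needling, sequencing batch, sex, needling site, side of the brain or interval since injury. The acupuncture group therefore differs from normal by the injury and the treatment together, and in this comparison these cannot be told apart. Nothing in the labels states that the numbers are separate animals, and the p-values measure only the spread among libraries, which may be technical.

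Hypoxic-ischemic brain damage in young rodents is a model of birth asphyxia, in which interrupted blood flow and low oxygen kill neurons and immature oligodendrocytes and leave gliosis and altered circuits. The prefrontal cortex is the frontal association area that serves working memory and attention, and it matures late. Acupuncture is studied in this setting as a rehabilitation treatment. In bulk tissue, fewer cells of a type and less RNA per cell cannot be told apart.

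The files name genes by identifier only and do not pair identifiers with symbols, and none of the 32883 identifiers matched the reference gene table. Genes are therefore given by identifier, without a function, and no promoter could be shown. For the same reason the tissue label was not checked against cell type markers, and the 38 lists of pathway and cell type genes drawn up for this comparison were not analysed here.

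The member of lowest p was ENSRNOG00000005927, which rose. Normal replicates 8, 10, 11 and 13 had 16.6, 15.3, 14.4 and 18.2 CPM, and acupuncture replicates 5, 22, 35 and 55 had 28.4, 27.2, 26.9 and 24.3 CPM. Every acupuncture library lay above every normal library. The log2 fold change was 0.73 (SE 0.08, edgeR quasi-likelihood test, adjusted p = 0.0177). The HIBD model libraries stood at 26.05, 25.97, 27.8 and 26.5 CPM, near the acupuncture level. This gene has 7 transcript rows, 1 annotated and 6 built by a transcript assembler. The annotated row held 0.394 CPM in normal and 0.255 CPM in acupuncture libraries (means), so the gene's value lay in assembled isoforms. The row with the widest difference in means had 3.18 ± 1.27 CPM in normal, 8.67 ± 1.83 CPM in acupuncture and 12.3 ± 3.41 CPM in HIBD model libraries (SD, n = 4).

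The higher member of next lowest p, ENSRNOG00000055298, did not pass. It stood at 1.49, 1.55, 1.61 and 1.59 CPM in the normal libraries and at 7.63, 6.72, 5.63 and 4.58 CPM in the acupuncture libraries, in the same order of replicates. The normal libraries were close to each other and the acupuncture libraries were spread, with no overlap. The log2 fold change was 1.98 (SE 0.31, edgeR adjusted p = 0.0543). HIBD model libraries ranged more widely, with 4.03, 3.14, 7.83 and 2.63 CPM. Its annotated row was listed at 0 in every normal and acupuncture library, and 3 assembled rows made up its value.

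Among lower members, ENSRNOG00000006104 was a low one that met the 1 CPM rule only through the normal group. A member of this kind had to be lower in acupuncture libraries, so its values are a description and its p supports nothing about the members. Normal libraries had 1.74, 2.08, 2.00 and 2.36 CPM, and acupuncture libraries 0.552, 0.587, 0.524 and 0.703 CPM. All acupuncture values were under 1 CPM and all normal values above it. The log2 fold change was -1.79 (SE 0.20, edgeR adjusted p = 0.0177). HIBD model libraries held 1.04, 0.691, 0.763 and 1.14 CPM. Of its 5 rows, 3 annotated ones were at 0 in the mean of each group. The remaining annotated row went from 0.576 ± 0.229 to 0.307 ± 0.0699 CPM and the assembled row from 1.47 ± 0.41 to 0.285 ± 0.0487 CPM (normal to acupuncture, SD, n = 4).

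ENSRNOG00000047931 fell by a smaller step at a higher level. Normal libraries had 72.5, 68.1, 69.98 and 76.6 CPM, and acupuncture libraries 47.3, 54.6, 49.7 and 49.6 CPM. The groups were separated by a wide gap relative to their spread. The log2 fold change was -0.51 (SE 0.06, edgeR adjusted p = 0.0193). HIBD model libraries stood at 56.4, 52.1, 53.4 and 52.4 CPM. This gene has 1 annotated row, so no choice between isoforms enters its value. In FPKM, its level was 586.9 ± 43.7 in normal and 374.2 ± 20.7 in acupuncture libraries (SD, n = 4).

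**Figure D1:**
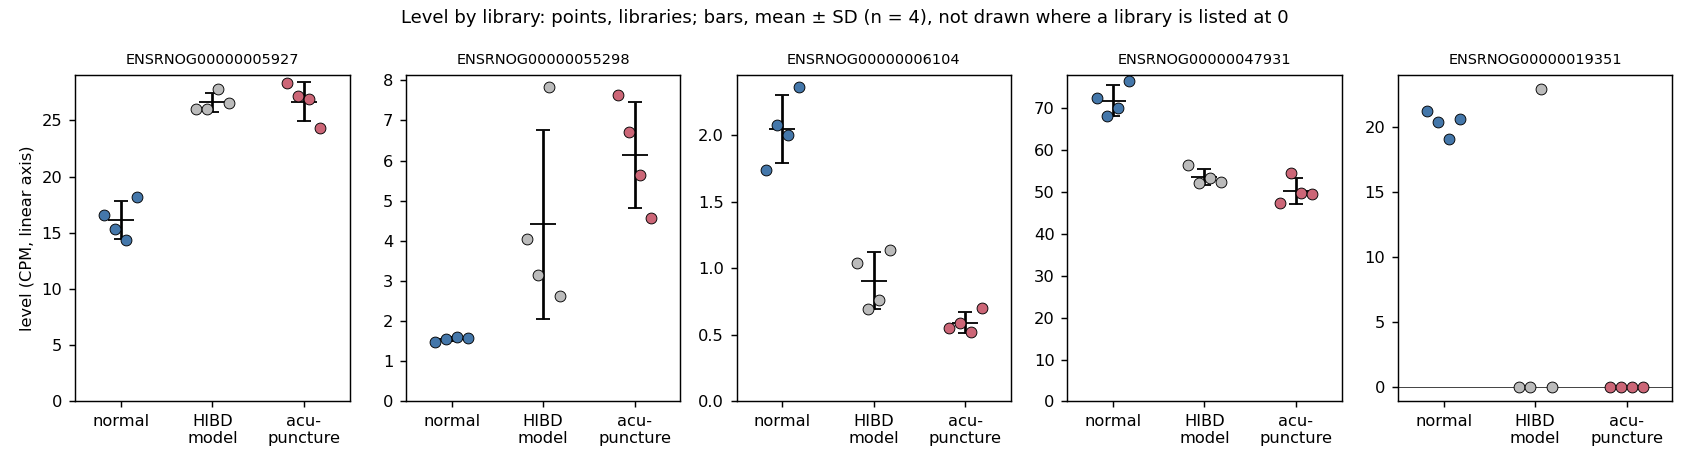
Level in CPM (linear axis) of 5 members in each library of the normal, HIBD model and acupuncture groups, with points for libraries and bars for mean ± SD (n = 4). In all 5 genes the acupuncture points lie wholly above or wholly below the normal points; ENSRNOG00000019351 is at 0 in all 4 acupuncture libraries and has no bars.

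In all, 10 of the 14044 tested members passed an adjusted p of 0.05, 1 higher and 9 lower, which is 0.0712% of members. Over all 27885 genes and loci tested, 23 passed (0.0825%), with 0.0502% higher and 0.0323% lower. Pooled over both directions, the share among members was near this background. By direction it was not, with 0.00712% of members higher and 0.0641% lower, and this difference was not tested. The lower calls over all genes and loci were the same 9 members, so the lower shares differ only through the number tested. Of the 14 higher calls over all genes and loci, 1 was a member. ENSRNOG00000006104 was the 1 call that reached 1 CPM in the mean of the normal group alone, and the other 9 (1 higher and 8 lower) reached it in both means. The 9 that fell had log2 fold changes from -1.91 to -0.42 (median -0.59), and edgeR adjusted p from 0.0177 to 0.0456. Apart from ENSRNOG00000006104, these members had normal means between 20 and 110 CPM, 8 of the 9. Within a group their libraries were close, with a highest to lowest ratio of at most 1.36 among normal and 2.18 among acupuncture libraries. All 10 called members had groups that did not overlap, which their choice by low p favours. In all 10 the HIBD model libraries also lay wholly on the acupuncture side of the normal libraries. The HIBD model mean lay between the acupuncture and normal means in 9. Both groups are set against the same normal libraries, so this is a description. Of the 10, 5 had 1 transcript row and the others up to 7.

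The number called depended on the threshold, as 111 members had an edgeR adjusted p under 0.1, 29 higher and 82 lower. It also varied with the libraries used. Leaving out normal replicate 8, 10, 11 or 13 gave 2, 932, 0 or 1 called members. Leaving out acupuncture replicate 5, 22, 35 or 55 gave 0, 0, 2 or 11. None of the 10 was called in all 8 of these fits. The count was 1896 with DESeq2 (686 higher and 1210 lower), 575 with edgeR on the acupuncture and normal libraries alone (177 and 398) and 5 with limma-voom (1 and 4). With only the scaling changed it was 5 under RLE (1 and 4) and 4 with factors from the members alone (1 and 3). With Ensembl genes tested alone it was 2 (1 and 1), where the factors changed together with the set of genes adjusted over (20023 against 27885).

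**Figure D2:**
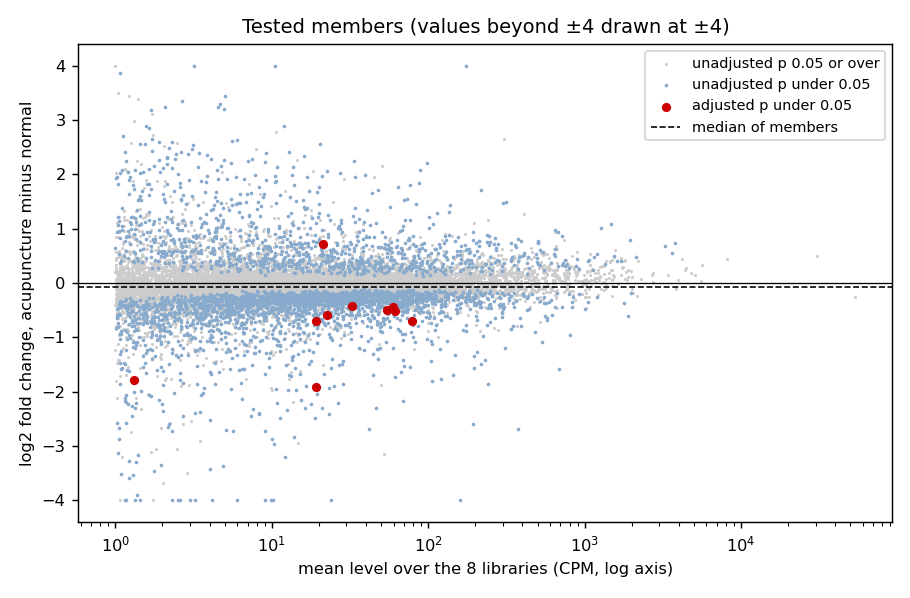
Log2 fold change of acupuncture minus normal for the 14044 tested members against mean level in CPM (log axis), with members of unadjusted p under 0.05 in blue and the 10 of adjusted p under 0.05 in red. The red points run from -1.91 to 0.73, with 9 below 0, among many blue points of equal or larger change. The dashed median lies at -0.08.

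Far more members had a low unadjusted p than passed the adjustment. At an unadjusted p under 0.05 in edgeR there were 3377 members (24.0%), 1062 higher and 2315 lower. The background over all genes and loci tested was 24.5%, with 14.1% higher and 10.4% lower. Groups did not overlap in 2695 members (19.2%), with all 4 acupuncture libraries above all 4 normal libraries in 862 and below them in 1833. The background was 17.6%, with 9% higher and 8.6% lower. Among the tested members, 276 reached 1 CPM in the normal mean alone and 200 in the acupuncture mean alone, and the rule itself sets the direction of these. Of the 13568 members that reached it in both means, 962 on the higher and 2188 on the lower side had an unadjusted p under 0.05. The same restriction was not applied to all genes and loci, so these counts have no background and are a description. Most of the gaps between groups were narrow. The nearest libraries of the 2 groups were less than 1.1-fold apart in 483 of the 862 and in 1104 of the 1833, and at least 1.5-fold apart in 44 and 104.

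The balance of higher and lower members varied with the scaling. The members had a median log2 fold change of -0.08 and 38.2% were higher, against a median of 0.02 and 51.3% over all genes and loci tested. The 1062 higher and 2315 lower members at an unadjusted p under 0.05 became 1172 and 2079 under RLE. With factors taken from the members alone, where nothing but the scaling changed, they were 1605 and 1482. Such factors centre the members' own fold changes near 0, so a near-even split was largely set in advance. Other alternatives changed more than the scaling. With Ensembl genes tested alone, which changed the factors and the genes tested, they were 1573 and 1581. Most of those genes were members, so the same limit applies there. Where only genes reaching 1 CPM in 4 libraries were tested, they were 1328 and 1782. By limma-trend on log2(FPKM + 1), where the unit, the test and the scaling all differ, they were 735 and 3973, and on log2(FPKM + 0.1) they were 737 and 3929. At that p, more members were lower than higher except with factors from the members alone, and with Ensembl genes alone the counts were nearly even. Over all tested members 47.4% were higher with factors from the members alone, so more were still lower. Factors from all genes and loci centre that wider set near 0 in the same way (median 0.02). The direction of the members as a whole therefore rests on the scaling, and none of these settings can decide it. The share of members at that p was between 22.0% and 33.5% under these settings. ENSRNOG00000005927 was higher, and ENSRNOG00000006104 and ENSRNOG00000047931 lower, under each of them.

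**Figure D3:**
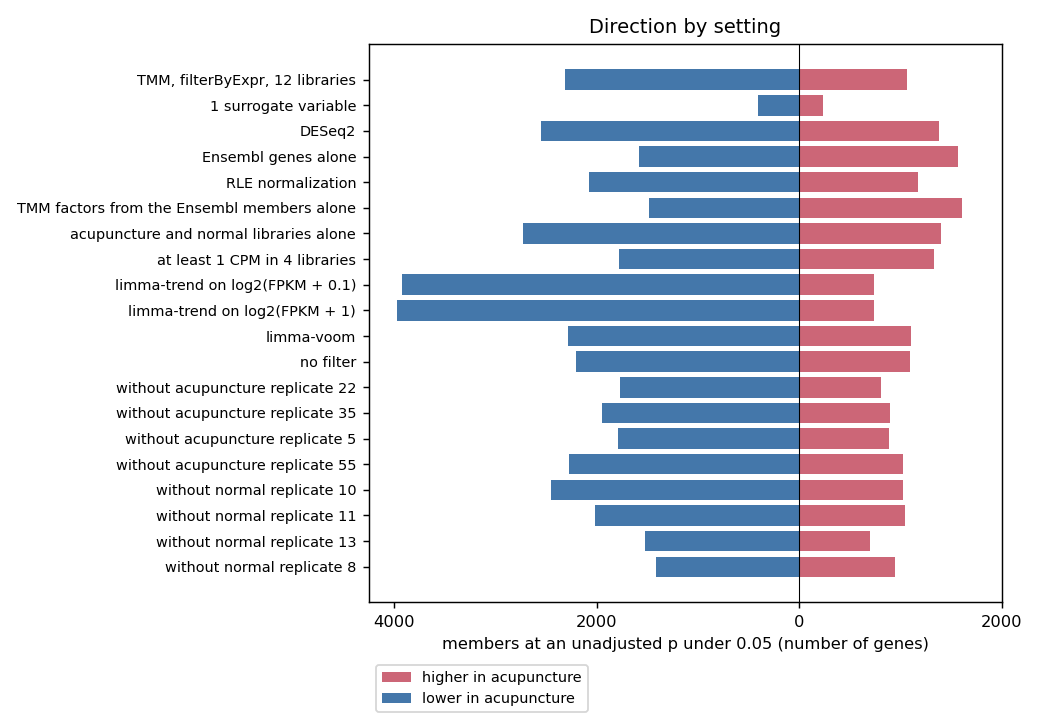
Number of members at an unadjusted p under 0.05, higher in acupuncture to the right and lower to the left, in the test reported here (top) and in 19 alternatives. The bars are of nearly equal length for Ensembl genes alone (1573 and 1581) and lean left on FPKM values (735 and 3973), and both are short with 1 surrogate variable (233 and 405).

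Most differences were small. From percentile 25 to percentile 75 of the members, log2 fold changes ran from -0.25 to 0.12, and from percentile 5 to percentile 95 they ran from -0.71 to 0.66. The absolute log2 fold change was under 0.5 in 83.6% of tested members and at least 1 in 5.33%, of which 357 were higher and 392 lower. The spread between replicates was of the same order. On log2(CPM + 0.1), the median SD between libraries was 0.169 in the acupuncture and 0.157 in the normal group, and the median absolute difference between group means was 0.194. The difference was under 1 pooled SD in 46.5% of members and over 2 pooled SDs in 3018 (21.5%). These shares were not taken over all genes and loci tested, so they describe the members without a background.

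The median fold change varied with how abundant a gene was. Members with a mean of 1 to 3 CPM had a median log2 fold change of -0.12, with 36.5% higher. Those from 10 to 30 CPM had a median of -0.10, those from 100 to 300 CPM of -0.01, and the 595 members at 300 CPM or over of 0.08, with 62.0% higher. These shifts in the median were small beside the width of each class, whose interquartile range was 0.28 to 0.50, and every class held members at an unadjusted p under 0.05 on both sides. Among the most abundant members, normal replicate 13 (-0.15) and acupuncture replicate 35 (0.16) lay farthest apart, measured as the median deviation from the mean of the 8 libraries in log2 CPM. Normal replicates 8 and 11, at 0.04 and 0.07 there, lay above acupuncture replicates 5 (-0.06) and 22 (-0.01), so the groups overlapped in that class. All classes held a similar share of members at an unadjusted p under 0.05, from 20.7% to 26.7%.

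A second property that tracked the fold change was the row factor. It is the number of estimated counts per unit of FPKM in the deposited values, which would be expected to grow with transcript length, though its relation to length was not given in the sources used here. Members in the lowest quintile of this factor had a median log2 fold change of -0.14. Of them 26.8% were higher, and an unadjusted p under 0.05 was reached by 90 on the higher and 581 on the lower side. ENSRNOG00000047931, described above as lower, was in this quintile, with a factor 0.0612 times that of the median member. In the highest quintile the median was -0.01 and 48.9% were higher, with 344 and 398 at that p. In the lowest quintile, normal replicates 8, 11 and 13 had median deviations of 0.11, 0.11 and 0.09, and normal replicate 10 one of -0.04. Acupuncture replicates 5, 22, 35 and 55 had -0.12, -0.07, -0.06 and -0.01. Normal replicate 10 therefore lay among the acupuncture libraries in this class. In the highest quintile the range over all 8 libraries was only -0.02 to 0.05.

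Genes with many isoforms differed in the other direction. The 5597 tested members with 1 transcript row had a median log2 fold change of -0.10, and 280 on the higher and 1049 on the lower side had an unadjusted p under 0.05. The 313 members with over 10 rows had a median of 0.15, with 66.8% higher, and 66 higher and 16 lower at that p. In this last class acupuncture replicates 5, 22, 35 and 55 had median deviations of 0.16, 0.13, 0.10 and 0.00, and normal replicates 8, 10, 11 and 13 had -0.07, -0.01, -0.07 and -0.14. The groups did not overlap there, although normal replicate 10 and acupuncture replicate 55 were nearly equal. The share of the members' value in assembled isoforms was 15.9%, 18.2%, 14.3% and 17.3% in these normal libraries and 18.1%, 18.0%, 15.2% and 16.2% in the acupuncture libraries, so it overlapped between the groups. What part level, row factor and number of isoforms play in the difference between groups was not tested.

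**Figure D4:**
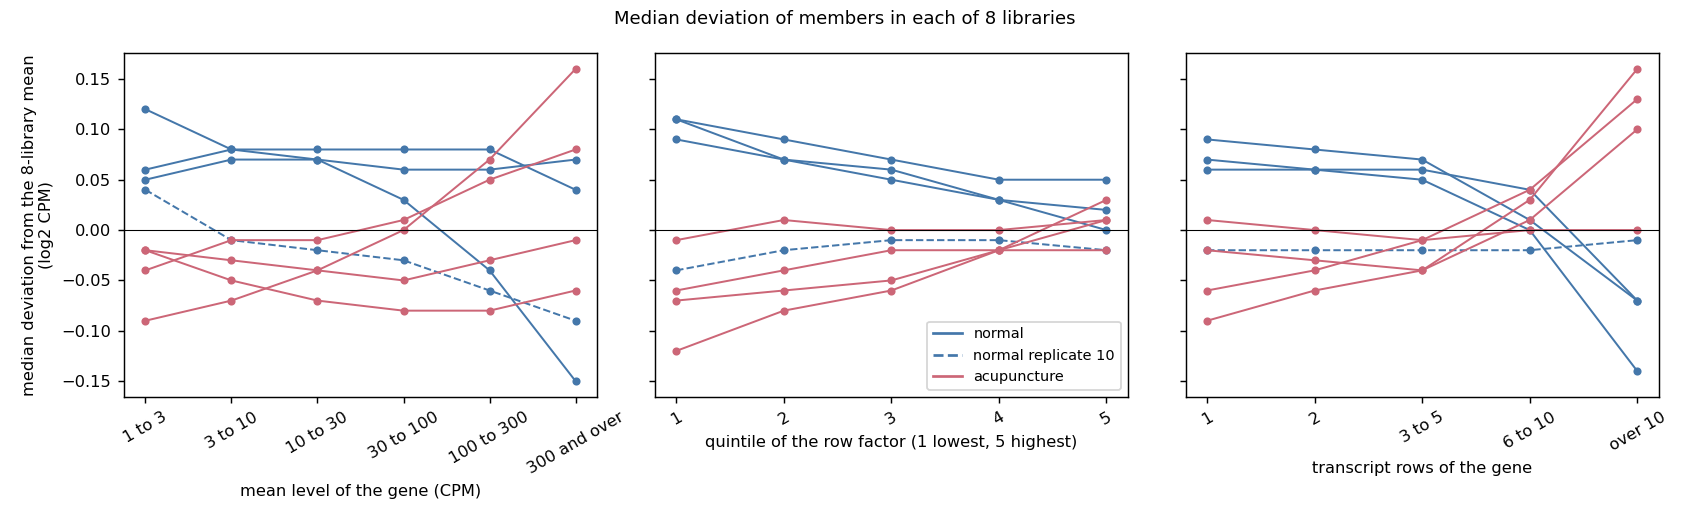
Median deviation of members from the mean of the 8 libraries (log2 CPM) in each normal and acupuncture library, by mean level, by quintile of the row factor and by number of transcript rows. The lines of 3 normal libraries lie above the acupuncture lines for low row factors and single-row genes. In those classes normal replicate 10 (dashed) runs among the acupuncture lines. The order turns round for genes of over 10 rows.

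The main axis of variation among the members separated the groups, and it also divided the HIBD model group. Over the 14044 tested members and the 8 libraries, the first principal component held 37.2% of the variance. Normal replicates 8, 10, 11 and 13 scored -37.3, -18.5, -15.1 and -56.3 on it, and acupuncture replicates 5, 22, 35 and 55 scored 24.96, 33.3, 42.9 and 26.01. All normal libraries lay on the negative side and all acupuncture libraries on the positive side. HIBD model libraries, which were not used to set the component, were projected onto it. Replicates 8 and 16 scored 26.9 and 34.5, within the acupuncture range, and replicates 2 and 18 scored -20.2 and -10.2, close to the least negative normal libraries. Libraries under the same label thus stood on both sides of this axis. The second component (18.0%) ran within the groups, from -31.4 to 28.8 in normal and from -24.1 to 41.0 in acupuncture libraries.

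**Figure D5:**
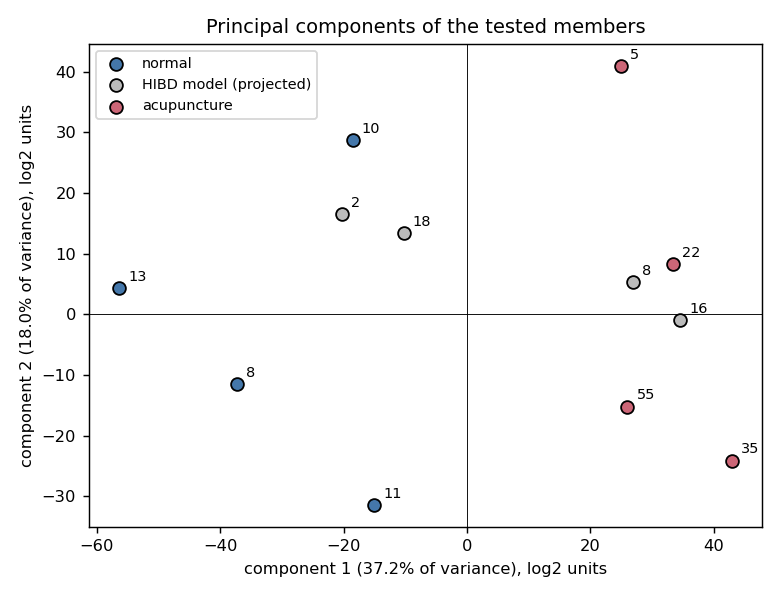
Scores of the libraries on the first 2 principal components of the tested members (log2 units), set by the 8 normal and acupuncture libraries, with the HIBD model libraries projected and replicate numbers beside the points. Normal libraries lie to the left (-56.3 to -15.1) and acupuncture libraries to the right (24.96 to 42.9), and the HIBD model libraries fall on both sides.

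A surrogate variable, a covariate estimated from all genes tested, followed the same division. Normal replicates 8, 10, 11 and 13 had values of -0.427, -0.0807, -0.276 and -0.450, and acupuncture replicates 5, 22, 35 and 55 had 0.258, 0.245, 0.256 and 0.0607. HIBD model replicates 8 and 16 had 0.309 and 0.422, and replicates 2 and 18 had -0.236 and -0.0822. With it as a covariate no member passed in edgeR, and 638 members (4.54%) had an unadjusted p under 0.05. Its values did not overlap between the acupuncture and normal groups, so what it stands for and the group difference cannot be told apart from these 8 libraries. Across members, Pearson's r of log2(CPM + 0.1) lay between 0.959 and 0.969 for pairs of normal libraries, between 0.957 and 0.972 for pairs of acupuncture libraries and between 0.926 and 0.966 for pairs of 1 library from each group. These pairs share libraries and genes are not independent replicates, so the ranges are a description.

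Members with the largest changes were variable ones, and none of them passed the adjustment. Among the 7942 tested members with a mean of at least 10 CPM, 25 had a log2 fold change of at most -2 and 18 of at least 2. The groups did not overlap in 15 of the 25 and 8 of the 18, against 17.6% of all genes and loci tested. Choice by a large fold change between the same groups favours such separation, so these counts are a description. The smallest edgeR adjusted p was 0.0708 among the 25 and 0.101 among the 18. The 25 had normal means from 17.7 to 647.2 CPM (median 31.3) and acupuncture means from 0 to 101.0 CPM (median 5.70). The 18 had acupuncture means from 17.7 to 525.7 CPM (median 32.1) and normal means from 0.123 to 83.5 CPM (median 6.49). Over these 43 members the median SD between libraries on log2(CPM + 0.1) was 0.98 in normal, 0.66 in acupuncture and 1.38 in HIBD model libraries, several times that of members as a whole. In 12 of the 43 the highest normal library was at least 10 times the lowest (counting libraries listed at 0), and in 9 and 19 the same held among acupuncture and HIBD model libraries.

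All-or-none listings were rare. Of the tested members, 13884 were above 0 in all 8 libraries. No member was listed at 0 in all 4 normal libraries while at 1 CPM or more in all 4 acupuncture libraries, and 1 showed the opposite. It was ENSRNOG00000019351, chosen after its values were seen, with 21.3, 20.4, 19.1 and 20.7 CPM in normal replicates 8, 10, 11 and 13 and a listing at 0 in every acupuncture library. The HIBD model libraries were listed at 0 in replicates 2, 8 and 18 and at 22.9 CPM in replicate 16. This all-or-none pattern within the HIBD model group was not a graded difference, and the gene did not pass (edgeR adjusted p = 0.118). A listing at 0 in these estimated values can be a failed estimate, so no fold change is given.

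Outside the members the comparison looked different. The 5979 tested Ensembl genes under 1 CPM had a median log2 fold change of -0.05, with 47.0% higher and 14.6% at an unadjusted p under 0.05. The 1300 tested assembled loci at a mean of at least 1 CPM had a median of 1.21, with 81.7% higher and 53.1% at that p. The median difference of the members was thus far smaller than that of the loci above the same threshold. The levels of the 2 classes were not matched. Loci reaching 1 CPM through the acupuncture mean alone, whose direction the rule sets as higher, were not counted apart. Whether the 2 classes differ beyond the spread between libraries was not tested.

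Library totals did not differ beyond their spread by the test used. The total estimated count was 1012315386 ± 60877526 in normal and 899446398 ± 138254815 in acupuncture libraries (SD, n = 4, two-sided exact permutation p = 0.229, adjusted over 2 measures 0.457). The 10 most abundant genes took 12.4 ± 1.42% and 12.6 ± 1.17% of it (exact permutation p = 0.8, adjusted 0.8), where the smallest p that 4 against 4 libraries allow is 0.0286. The 2 most abundant members alone took from 6.62% to 10.4% in normal and from 6.35% to 9.15% in acupuncture libraries. The depth in reads is unknown, because the worth of 1 unit in reads is, and no counting interval is given.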

How the data were processed

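Per the labels' protocols, total RNA came from flash-frozen cortex by Trizol, and libraries were made with a NEBNext kit. HTSeq 0.6.0 and the build Rnor 6.0 appear in the submitters' processing notes, without a role. The aligner was not given in the sources used here, nor were assembler and strand setting. The authors deposited estimated counts per transcript row for 12 libraries (78025 rows) and, per library, FPKM values labelled by gene. The FPKM unit was read from the values. Rows were paired with gene identifiers by their shared order. As a check on the pairing, each deposited estimated count was the FPKM times a factor of the row and one of the library. The median deviation was 0.00103% over the 12003 rows above 2000 in every library, and 17.9% with rows shuffled. The row factor spanned 133.3-fold from its 5th to its 95th percentile.

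Rows were summed per gene. edgeR 4.0.16 in R 4.3.3 (quasi-likelihood test, TMM, filterByExpr by group, no covariate) was fitted to all 12 libraries, and p-values were adjusted by Benjamini-Hochberg over 27885 genes, with calls at 0.05. Read counts had been assumed in the design, and the test was kept for estimated counts. SEs came from the F statistic. Library totals were compared by two-sided exact permutation over 70 assignments. Alternatives used RLE, DESeq2 1.42.0, limma 3.58.1, sva 3.50.0, other filters and fewer libraries. Factors from the members alone were added after seeing the data. The members and lists were chosen with earlier results of these data known. Genes were named by lowest p, 2 in each direction, since no identifier matched the reference table (GRCr8). Of the 628 listed symbols 611 were in that table, which holds no Ensembl identifiers, so none could be used.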

Additional observations from a re-analysis of the deposited data

Results flagged for a closer look

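The total estimated count of HIBD model replicate 18 was 1090316733, apart from the other 3 libraries of its group. It was 1 of 27 groups of 4 values screened for a single distant library, where chance marks about 1 in 20. This library is in neither group compared, but it was among the 12 libraries used for the filter, the shared estimate of spread and the surrogate variable.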

How the results depend on the processing

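The number of genes called between acupuncture and normal libraries was 23 over all genes and 10 among the members. It was 13 and 5 with RLE, 4324 and 1896 with DESeq2, 9 and 5 with limma-voom, 11 and 5 without a filter, 8 and 5 with at least 1 CPM in 4 libraries, 2 and 2 with Ensembl genes alone, 807 and 575 with the 2 groups alone, and 10 and 4 with factors from the members alone. It was 1 and 1 on log2(FPKM + 1) and 1739 and 640 on log2(FPKM + 0.1), both by limma-trend. It was 0 and 0 in edgeR with 1 surrogate variable, where 1238 genes and 638 members had an unadjusted p under 0.05. With single replicates left out it ranged from 0 to 3094 over all genes and from 0 to 932 among members, with the highest count without normal replicate 10. The median log2 fold change of members, -0.08, was -0.02 with Ensembl genes alone and with factors from the members alone, and -0.17 and -0.21 on log2(FPKM + 1) and log2(FPKM + 0.1). The share of members higher, 38.2%, was 46.8% and 47.4% under the former pair and 23.8% under both of the latter. Why the settings differ was not tested, and the cause was not tested for single libraries. With a mean of at least 5 CPM, 9 of the called members were left. ENSRNOG00000005927, ENSRNOG00000006104 and ENSRNOG00000047931 kept their direction in the 19 alternatives and their call in 13, 12 and 10 of them, and ENSRNOG00000055298 was called in 4. Their adjusted p-values in edgeR with single replicates left out lay between 0.00912 and 0.0764, 0.00912 and 0.0765, 0.00912 and 0.083, and 0.0118 and 0.179. No paired analysis was possible because the acupuncture and normal groups share no replicate number.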
